A study of Mus musculus with 16 samples.

Results

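The 10 immediate early genes described here encode subunits of the transcription factor AP-1 and related factors: Fos, Fosb, Fosl1 and Fosl2 of the FOS family, Jun, Junb and Jund of the JUN family, Egr1 and Egr2 of the EGR family, and Atf3. They were taken by name from the table of 20200 genes, and all 10 were found and passed the filter on low counts that left 11998 genes. The samples came from 12-week-old wild-type C57BL/6 mice after anterior cruciate ligament reconstruction (ACLR), in which a tendon graft is passed through bone tunnels and the tissue between tendon and bone, the interface tissue, is harvested. Live, lineage-negative CD45+ CD11b+ cells were flow-sorted on days 1 and 14 after surgery into Ly6G+ neutrophils, Ly6G- F4/80- myeloid cells, F4/80+ CD9+ macrophages and F4/80+ CX3CR1+ macrophages. Each of the 8 groups has 2 libraries, and each library is a pool of several mice. The rare macrophages positive for both CD9 and CX3CR1 fell into the CD9+ sort. All groups share the operation and the protocol of cell isolation. No group of unoperated mice is among these libraries, so both days are days after injury. Cells of days 1 and 14 came from different mice, and the sources used here do not give the sort sessions. A change between the days and a difference between sessions therefore cannot be told apart.

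AP-1 is a dimer. FOS proteins cannot pair with each other and bind DNA only with a JUN partner, while JUN proteins also pair among themselves. EGR factors are zinc finger proteins that bind GC-rich sites, and ATF3 is a bZIP protein that pairs with JUN proteins and often represses its targets. Most of these genes are transcribed within minutes of growth factor, cytokine, mechanical or stress signals, without new protein synthesis, and have short-lived mRNAs. In myeloid cells they are known for the first wave of the inflammatory response, and EGR factors also for monocyte and macrophage differentiation. Cell isolation and sorting are known to induce the same genes, which is why the heat shock genes, induced under similar conditions, are given beside the results.

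Promoters are shown for Fos and for 4 of the genes that took another course than Fos in neutrophils. Egr1, which also fell there, is not shown, because no window was read for it. Each line is the 150 bases before a RefSeq start on build GRCm38.p6, in the direction of transcription. The start used is the one nearest that of a Gencode transcript chosen for the gene. The annotated genes of Egr2 and Atf3 begin further upstream, and windows at those starts are not shown. Capitals mark TGACG on either strand (the core of the cAMP response element, bound by CREB and ATF factors). They also mark the CArG box bound by SRF (among these windows, Egr2 only) and TATAAA (Fos only). Sites further from the start were not searched.
Fos, chr12:85473740-85473889, plus strand: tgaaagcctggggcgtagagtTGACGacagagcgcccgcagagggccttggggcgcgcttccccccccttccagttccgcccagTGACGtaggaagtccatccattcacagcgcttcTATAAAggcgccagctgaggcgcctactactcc
Fosb, chr7:19310046-19310195, minus strand: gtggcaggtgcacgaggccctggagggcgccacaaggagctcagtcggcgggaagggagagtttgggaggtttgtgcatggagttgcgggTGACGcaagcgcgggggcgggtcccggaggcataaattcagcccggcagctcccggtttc
Jun, chr4:95052223-95052372, minus strand: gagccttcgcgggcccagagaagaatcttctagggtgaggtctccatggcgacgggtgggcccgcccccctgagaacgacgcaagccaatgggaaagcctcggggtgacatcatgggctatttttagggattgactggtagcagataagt
Egr2, chr10:67537719-67537868, plus strand: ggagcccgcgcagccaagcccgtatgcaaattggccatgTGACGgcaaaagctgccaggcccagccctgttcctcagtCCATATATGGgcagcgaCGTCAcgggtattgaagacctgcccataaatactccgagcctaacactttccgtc
Atf3, chr1:191183334-191183483, minus strand: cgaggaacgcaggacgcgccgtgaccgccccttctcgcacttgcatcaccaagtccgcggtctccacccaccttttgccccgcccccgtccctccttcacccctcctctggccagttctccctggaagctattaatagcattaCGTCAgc

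The 5 windows held 6 matches to TGACG, namely 2 each in Fos and Egr2, 1 each in Fosb and Atf3 and none in Jun. Among 32817 RefSeq promoter windows of the same length, 13.3% held TGACG, 0.917% a CArG box and 7.58% TATAAA. The Egr2 CArG box lay 72 to 63 bases before the start. The letters of the AP-1 site TGACTCA were searched too, are in 2.84% of all windows, and are in none of these 5. The matches are letters in a sequence, and the data hold no measurement of binding.

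Total counts were 9233952 to 19814119 per library, and the 10 genes took 0.314% to 1.03% of them. The smallest count of any of these genes in any library was 57, so each value rests on counts well above the detection limit. Levels are given as CPM, the share of a gene in the TMM-scaled total of its library, and the values of a pair are replicates 1 and 2. The replicates of CD9+ cells on day 1 resembled each other less than those of any other group (correlation of log2 CPM over genes 0.935, against 0.976 to 0.988). Ly6g, which encodes the neutrophil sort marker, was at 81.7 to 286 CPM in neutrophils and at most 10.1 CPM elsewhere, and Adgre1, which encodes F4/80, was at 120.4 to 217 CPM in both macrophage sorts, 8.43 to 13.8 CPM in F4/80- cells and 20.2 to 43.6 CPM in neutrophils. Cx3cr1 was highest in CX3CR1+ cells (133 to 293 CPM, against 73 to 108 CPM in CD9+ cells). Cd9 separated the macrophage sorts (142 to 184 CPM in CD9+ and 6.5 to 21.1 CPM in CX3CR1+ cells) but was higher still in neutrophils (346 to 678 CPM). Of the 4 eosinophil markers (Siglecf, Epx, Prg2, Ccr3), the summed level was 5826 to 9400 CPM in CD9+ cells on day 14, 491 to 562 CPM on day 1, and at most 116 CPM in the other groups. In the same CD9+ cells the 8 macrophage markers summed to 1025 to 1583 CPM on day 14 and 1331 to 1831 CPM on day 1. The 7 neutrophil markers summed to 11840 to 15857 CPM in F4/80- cells, 2318 to 7655.5 CPM in CD9+ cells and 444 to 1069.5 CPM in CX3CR1+ cells. In bulk samples, fewer cells of a type and less RNA per cell cannot be told apart.

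**Figure D1:**
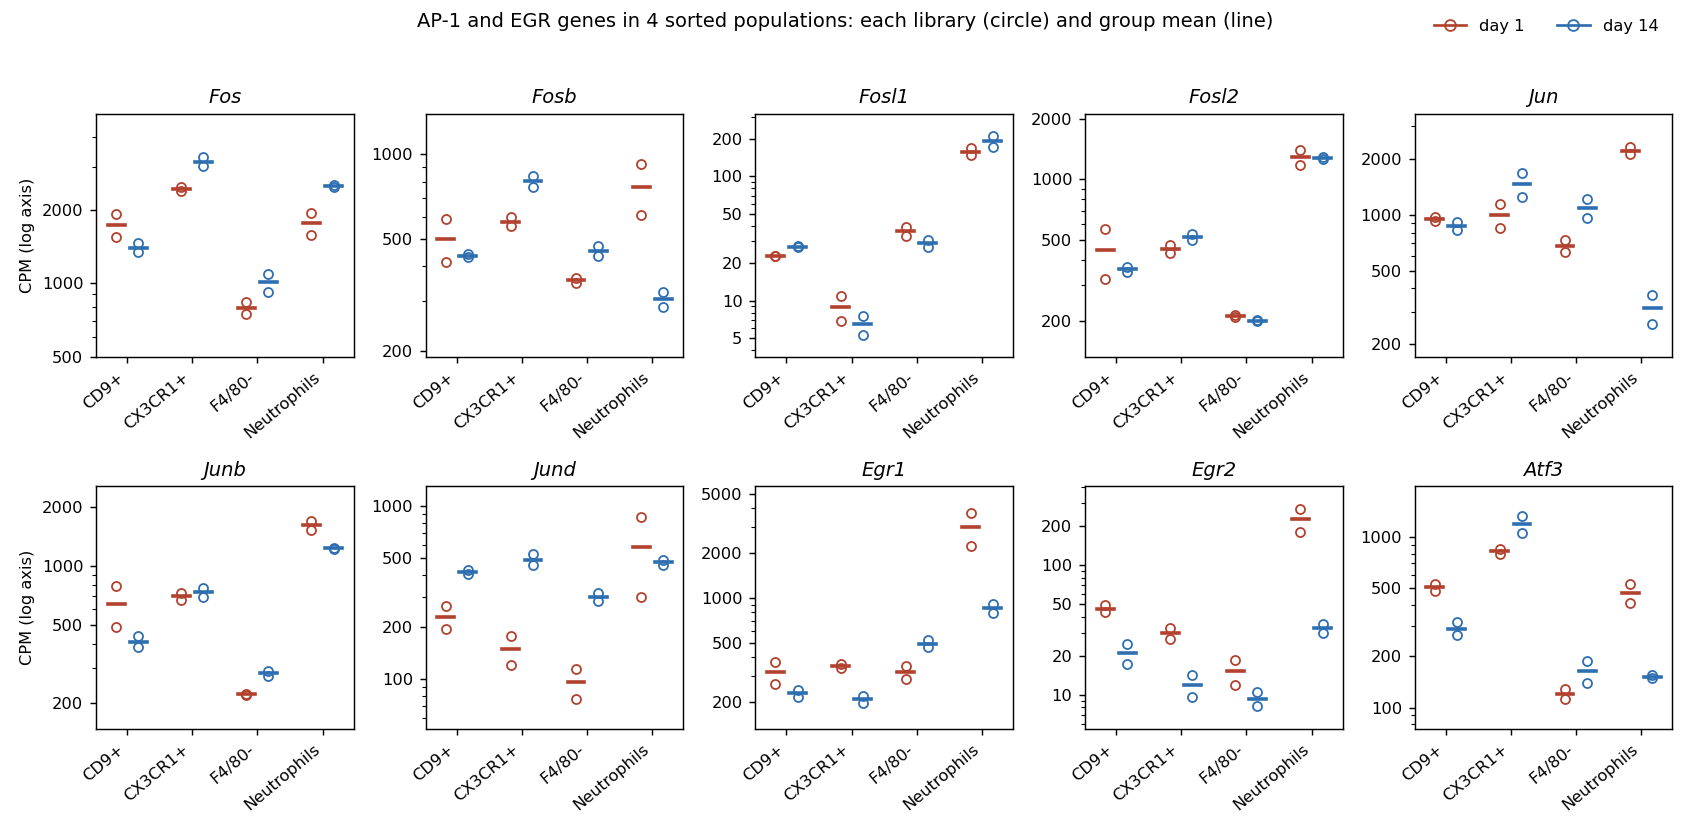
Level of each of the 10 genes in CPM (log axis, ranges differ between panels) in the 4 populations on day 1 (red) and day 14 (blue). Circles are single libraries and lines are means of 2 libraries. Jun, Egr1, Egr2 and Atf3 drop between the days in neutrophils, and the Fosl1 level of neutrophils stands above that of every other population.

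Most of the calls over time were in neutrophils. Between days 1 and 14, Jun, Egr2, Egr1, Atf3 and Fosb fell, and no gene of the 10 rose past the thresholds. A gene was called where its Benjamini-Hochberg adjusted p over all tested genes, by the quasi-likelihood test of edgeR, lay under 0.05 and its log2 fold change was 1 or more in either direction. By this rule 5 of the 10 were called, all lower, while 14.1% of all genes were called in the same comparison and 10.9% were called lower. The p-values measure the spread between pools of mice.

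Jun, the JUN family member that activates most strongly, was at 2114 and 2317 CPM in neutrophils on day 1 and at 370.1 and 256 CPM on day 14. The groups were far apart, the day 1 mean being 7.07 times the day 14 mean, and the log2 fold change was -2.82 ± 0.21 (SE, n = 2 against 2, edgeR adjusted p = 2e-07). Neutrophils held the highest Jun level of the 8 groups on day 1 and the lowest on day 14.

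Egr2 was at 179.5 and 269 CPM on day 1 and at 35.3 and 29.8 CPM on day 14 (log2 fold change -2.79 ± 0.27, edgeR adjusted p = 1.9e-06). Egr1, the founding member of its family and an early sensor of growth factor and stress signals, was at 2235 and 3737 CPM on day 1 and at 914 and 794 CPM on day 14, a log2 fold change of -1.81 ± 0.21 (edgeR adjusted p = 1.8e-05). The day 1 replicates of both EGR genes lay apart from each other, replicate 2 being the higher, and neither gene's groups overlapped. Atf3 was at 411 and 531 CPM on day 1 and at 155 and 148 CPM on day 14 (log2 fold change -1.63 ± 0.17, edgeR adjusted p = 6.2e-06).

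The FOS family divided. Fosb, which is induced with Fos, was at 607 and 925 CPM on day 1 and at 285 and 324 CPM on day 14 (log2 fold change -1.33 ± 0.19, edgeR adjusted p = 9.6e-05), and without replicate 2 of day 1 its value was -0.99, under the fold limit. Fos itself was at 1952.5 and 1581 CPM on day 1 and at 2530.3 and 2485 CPM on day 14. Its difference went the other way (log2 fold change 0.51 ± 0.15), passed the adjusted p (0.023, edgeR) and stayed below the fold limit. Fosl1 and Fosl2, which lack the strong activation domain of Fos, gave log2 fold changes of 0.28 ± 0.19 and -0.02 ± 0.19 and did not pass.

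Junb, a JUN member often opposed in effect to Jun, gave -0.40 ± 0.17 between the days in neutrophils and did not pass (edgeR adjusted p = 0.11). Jund could not be measured precisely there. Its day 1 libraries were at 299.7 and 868 CPM, on either side of the day 14 values of 489 and 459 CPM, and the log2 fold change was -0.30 ± 0.34.

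Markers and stress genes moved in the same libraries. The 8 macrophage markers summed to 589.8 to 592 CPM in neutrophils on day 1 and to 183 to 187.5 CPM on day 14, 6 of the 8 being called lower, and the 7 neutrophil markers to 31818 to 50528 and 51097 to 55100 CPM. The 10 heat shock genes summed to 1670.5 to 2013 CPM on day 1 and 1375 to 1442 CPM on day 14, and 4 of them were called lower, led by the inducible Hsp70 genes Hspa1a (log2 fold change -6.13) and Hspa1b (-4.90). The part of either in the changes of Jun, the EGR genes, Atf3 and Fosb was not tested.

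**Figure D2:**
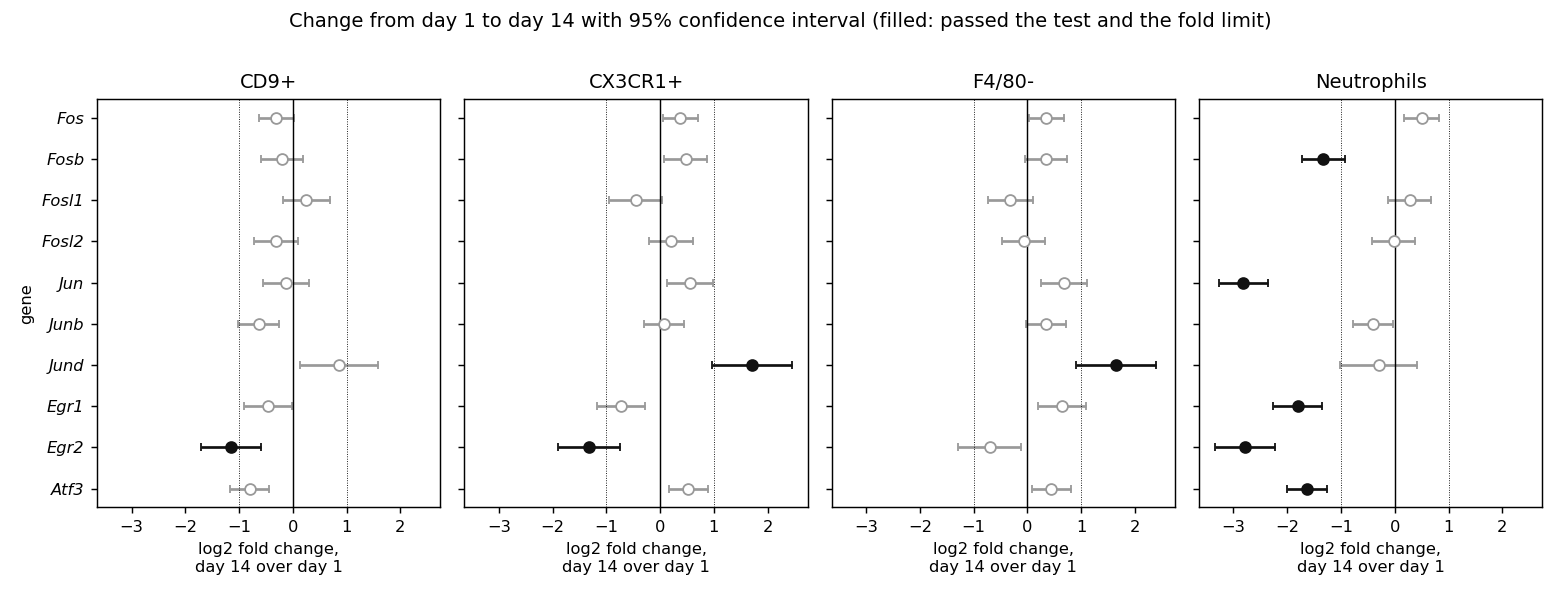
Log2 fold change from day 1 to day 14 of each gene in the 4 populations, with the 95% confidence interval from the model (n = 2 libraries a group). Filled points passed the adjusted p and the fold limit (dotted lines): 5 genes in neutrophils, all lower, 2 in CX3CR1+ cells, and 1 each in CD9+ and F4/80- cells.

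In both macrophage populations Egr2 fell. In CD9+ macrophages it was the only gene of the 10 called (1 of 10, against 8.23% of all genes and 3.48% lower), at 43.3 and 49.1 CPM on day 1 and 17.3 and 24.4 CPM on day 14 (log2 fold change -1.15 ± 0.26, edgeR adjusted p = 0.0077). In CX3CR1+ macrophages it was at 27.0 and 32.7 CPM on day 1 and at 14.2 and 9.56 CPM on day 14 (log2 fold change -1.33 ± 0.27, edgeR adjusted p = 0.0042). The groups did not overlap in either population. Leaving out replicate 1 of day 14 in CD9+ cells (-0.90, adjusted p = 0.11) or replicate 2 of day 14 in CX3CR1+ cells (-1.07, adjusted p = 0.081) ended the call, as did the fit of the compared groups alone in CD9+ cells (-1.14, adjusted p = 0.061).

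Jund, the JUN member usually described as constitutive rather than induced, rose from day 1 to day 14 in CX3CR1+ macrophages and F4/80- cells. In CX3CR1+ macrophages, where 2 of the 10 genes were called against 5.86% of all genes, it was at 177 and 122 CPM on day 1 and 526 and 456 CPM on day 14 (log2 fold change 1.72 ± 0.35, edgeR adjusted p = 0.0043). In F4/80- cells it was the 1 gene called, against 3.25% of all genes and 1.01% higher, at 77.4 and 115 CPM on day 1 and 315 and 284 CPM on day 14 (log2 fold change 1.64 ± 0.35, edgeR adjusted p = 0.011). In CD9+ cells the values were 195 and 265 CPM and then 407 and 426 CPM, also without overlap, and the difference did not pass (0.86 ± 0.34, edgeR adjusted p = 0.098). Of the 10 genes Jund had the largest standard error in these comparisons, and the calls were lost without replicate 2 of day 1 in CX3CR1+ cells (1.46, adjusted p = 0.068) and without replicate 1 of day 1, or either replicate of day 14, in F4/80- cells (1.39 to 1.73, adjusted p up to 0.15).

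Atf3 differed in its course between the macrophage populations. In CD9+ cells it was at 481 and 533 CPM on day 1 and 265 and 316 CPM on day 14, a difference of -0.80 ± 0.17 that passed the adjusted p (0.005, edgeR) but not the fold limit. In CX3CR1+ cells it was at 851 and 796 CPM and then 1322 and 1053 CPM (0.53 ± 0.17, edgeR adjusted p = 0.053). The difference between these changes, tested as an interaction in the same model, was -1.33 ± 0.24 on the log2 scale (edgeR adjusted p = 0.007). Atf3 was the 1 gene of the 10 called in this interaction, against 2.84% of all genes and 1.38% lower, and without replicate 1 of CX3CR1+ day 14 its adjusted p was 0.054.

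Junb in CD9+ macrophages gave -0.64 ± 0.18 (488 and 792 CPM, then 385 and 437 CPM, edgeR adjusted p = 0.022), and Egr1 in CX3CR1+ macrophages -0.73 ± 0.21 (358 and 336 CPM, then 221 and 198 CPM, edgeR adjusted p = 0.034), both under the fold limit. Fos, Fosb, Fosl1, Fosl2 and Jun did not pass the adjusted p in either macrophage population or in F4/80- cells. The heat shock genes summed to 3541 to 4301 CPM in the macrophages on day 1 and to 2673 to 3016 CPM on day 14, with none of the 10 called, and in F4/80- cells to 4208 to 4628 and 2554 to 2938 CPM, with 4 called lower. The eosinophil markers moved with the day in CD9+ cells, as given above. In CX3CR1+ cells the 8 macrophage markers summed to 1786 to 1878 CPM on day 1 and 1246 to 1348 CPM on day 14, 5 of the 8 being called lower, and the 6 dendritic cell markers to 11.9 to 13.9 and 52.9 to 59.1 CPM, all 4 tested being called higher. The 6 fibroblast markers stood at 81.3 CPM in replicate 2 of CX3CR1+ day 14, against 2.27 CPM in replicate 1 and 0.993 to 1.41 CPM on day 1. Without that replicate Jund was at 1.82, the Atf3 interaction at -1.48 and Egr2, whose call ended, at -1.07. The part of these markers and of the heat shock genes in the changes of Egr2, Jund and Atf3 was not tested.

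The changes over time were then compared between populations. Against the mean change of both macrophage populations, neutrophils changed differently in 6 of the 10 genes (against 14% of all genes and 9.83% lower), in each case with the lower value in neutrophils: Jun, Jund, Egr2, Atf3, Fosb and Egr1. The largest such difference was that of Jun, -3.03 ± 0.25 on the log2 scale (edgeR adjusted p = 2.5e-06). For Jund the difference was -1.59 ± 0.42 with all libraries and -0.63 without replicate 2 of day 1 neutrophils (adjusted p = 0.19), and its call was also lost without either replicate of day 14 neutrophils (-1.63 and -1.54, adjusted p = 0.073 and 0.1). Egr1 gave -1.21 ± 0.26 with all libraries and -0.79 without replicate 2 of day 1 neutrophils. Against the same macrophage mean, F4/80- cells changed differently in Egr1 alone of the 10, against 1.1% of all genes and 0.367% higher. There Egr1 was at 348 and 286 CPM on day 1 and 519.7 and 468 CPM on day 14, and the difference in change was 1.24 ± 0.26 (edgeR adjusted p = 0.037). That call was lost with scaling by library size alone (1.14, adjusted p = 0.073) and without any 1 of 10 of the 12 libraries behind it.

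**Figure D3:**
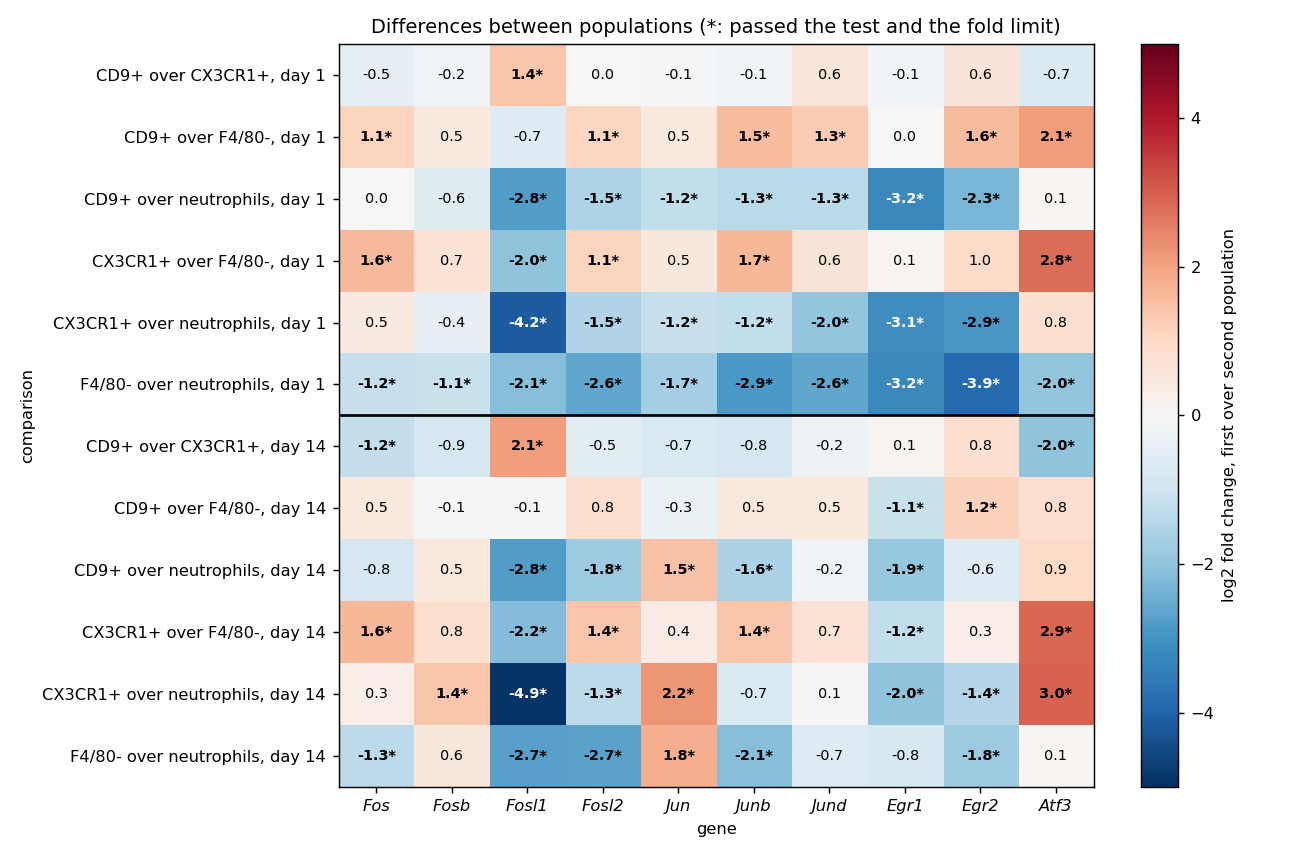
Log2 fold change of each gene between the populations (first over second) on day 1 (upper 6 rows) and day 14 (lower 6 rows), with red for higher and blue for lower in the first. Asterisks mark differences past the adjusted p and the fold limit, and all 10 genes carry one for F4/80- cells over neutrophils on day 1.

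On day 1 the neutrophils stood above the other populations in most of these genes. These comparisons share the neutrophil libraries. All 10 genes were lower in F4/80- cells than in neutrophils (49% of all genes were called in that comparison and 22.6% called lower), with log2 fold changes from -3.88 for Egr2 to -1.10 for Fosb. In CD9+ cells 7 were lower (against 49.5% called and 21.7% lower): Fosl1, Fosl2, Jun, Junb, Jund, Egr1 and Egr2. In CX3CR1+ cells 7 were lower (against 51% called and 24.1% lower), those 7 genes again. The CX3CR1+ count depended on the scaling. With library size alone 4 were lower (Fosl1, Jund, Egr1 and Egr2) and 2 higher (Atf3, 1.38, and Fos, 1.04), and with the upper quartile 5 were lower and 1, Atf3, higher (1.08). In F4/80- cells both scalings left 8 lower, Fos and Fosb falling short of the fold limit, and the fit of the compared groups alone put Fosb at -0.98. The Jund difference of CD9+ cells was -1.34 with all libraries and -0.38 without replicate 2 of the neutrophils. With TMM scaling Fos, Fosb and Atf3 were not called in either macrophage population, although Fosb in CD9+ cells (-0.61), Fos in CX3CR1+ cells (0.47) and Atf3 in CX3CR1+ cells (0.81) passed the adjusted p. Fos was at 1550.5 and 1919 CPM in CD9+ cells, overlapping the neutrophils' 1952.5 and 1581 CPM, and the interval of the CD9+ difference in Atf3 was -0.25 to 0.47 around a log2 fold change of 0.11.

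Egr1 was at 264 to 369 CPM in the 6 other libraries of day 1 against 2235 and 3737 CPM in neutrophils, with log2 fold changes of -3.24 ± 0.23, -3.11 ± 0.23 and -3.24 ± 0.23 in CD9+, CX3CR1+ and F4/80- cells. By day 14 the log2 fold changes for Egr1 were -1.89 and -2.03 in CD9+ and CX3CR1+ cells and -0.79 in F4/80- cells, the last below the fold limit.

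Jun turned over between the days. Against neutrophils it was lower in CD9+, CX3CR1+ and F4/80- cells on day 1 (log2 fold changes -1.22, -1.15 and -1.70) and higher in all 3 on day 14 (1.47, 2.22 and 1.80, each ± 0.20 or 0.21 and past the adjusted p). On day 14 Jun was at 822 to 1667 CPM in those populations and at 370.1 and 256 CPM in neutrophils. The counts of the 10 genes called on day 14 were 5 for CD9+ cells (against 49.5% of all genes), 7 for CX3CR1+ cells (against 48%) and 6 for F4/80- cells (against 48.7%). Fosl1, Fosl2, Junb and Egr1 were lower and Jun higher in CD9+ cells. The split moved with the scaling here too. With TMM, 1 was higher and 4 lower in CD9+ cells, 3 and 4 in CX3CR1+ cells, and 1 and 5 in F4/80- cells, and with library size alone these were 3 and 4, 3 and 2, and 2 and 4. Scaling by library size alone instead of TMM moved the all-gene median of the comparisons with neutrophils upward by 0.33 to 0.61 on the log2 scale. Jun kept its direction on both days under library size and upper quartile scaling, but on day 1 it passed the fold limit with neither in CX3CR1+ cells (-0.58 and -0.88) and not with library size in CD9+ cells (-0.89).

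Fosl1 had the widest range of the 10 genes, its highest group mean being 29.7 times its lowest. It is a FOS family member without a strong activation domain that is known for a role in bone-forming and bone-resorbing cells. It was at 147 and 169 CPM in neutrophils on day 1 and 210.3 and 173 CPM on day 14, and at 5.29 to 10.9 CPM in CX3CR1+ macrophages. CD9+ macrophages, at 22.8 to 27.4 CPM over both days, and F4/80- cells, at 27.2 to 39.2 CPM, lay in between. In the order of the 8 group means, neighbours differed at 2 places, from neutrophils to F4/80- cells (log2 difference 2.13 ± 0.20) and from CD9+ to CX3CR1+ cells (1.37 ± 0.21). The other neighbours did not differ beyond their spread, F4/80- and CD9+ cells on day 14 among them (0.09 ± 0.20). The summed level of the 7 neutrophil markers, given above, takes the same order over the populations as Fosl1 does. Single markers did not all follow that order. On day 14, 5 of the 7 were called higher and 2 lower in CD9+ than in CX3CR1+ cells (against 14.2% of all genes called). The part of these markers in the Fosl1 level was not tested.

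Between CD9+ and CX3CR1+ macrophages, Fosl1 was higher in CD9+ cells on both days. In day 1 cells it was the 1 gene called (against 8.23% of all genes and 6.36% higher, log2 fold change 1.37 ± 0.21, edgeR adjusted p = 0.00039), and the fit of the compared groups alone ended that call (1.35, adjusted p = 0.07). On day 14, 3 genes were called (against 14.2%), with Fosl1 higher (2.08 ± 0.23, edgeR adjusted p = 6.6e-06) and Fos and Atf3 lower in CD9+ cells. Atf3 was at 265 and 316 CPM in CD9+ and at 1322 and 1053 CPM in CX3CR1+ cells (log2 fold change -2.03 ± 0.17, edgeR adjusted p = 6e-07). Fos was at 1343 and 1463.5 CPM in CD9+ and at 3301 and 3028 CPM in CX3CR1+ cells (-1.17 ± 0.15, edgeR adjusted p = 3.8e-05). Without the fold limit 7 of the 10 passed on day 14, Fosb, Jun and Junb being lower and Egr2 higher in CD9+ cells by less than 1 on the log2 scale. The share of all genes that passed without the fold limit was not computed, so that count cannot be set against it. The eosinophil markers differed between these same libraries (5826 to 9400 CPM against 43 to 76.1 CPM), and their part in the Fos and Atf3 difference was not tested. On day 1 the eosinophil sums were also higher in CD9+ cells (491 to 562 CPM) than in CX3CR1+ cells. The Fos and Atf3 differences on that day were -0.49 ± 0.15 and -0.70 ± 0.17 (edgeR adjusted p = 0.04 and 0.011). They had the same direction as on day 14 and stayed below the fold limit. The part of the eosinophil markers in these day 1 differences was not tested either.

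CX3CR1+ macrophages held the highest mean Fos and Atf3 levels of the 4 populations on both days. For Fos on day 14 their difference from neutrophils did not pass (log2 fold change 0.34 ± 0.15, edgeR adjusted p = 0.064). Against F4/80- cells, 5 genes were called on day 1 (against 21.1% of all genes) and 6 on day 14 (against 21.5%). Fos, Fosl2, Junb and Atf3 were higher and Fosl1 lower in CX3CR1+ cells on both days, and Egr1 was also lower on day 14. Atf3 differed most, with log2 fold changes of 2.78 ± 0.18 and 2.86 ± 0.18, F4/80- cells having 128 and 112 CPM on day 1 and 187 and 140.2 CPM on day 14. CD9+ against F4/80- cells gave 6 called genes on day 1 (against 15.4% called and 9.23% higher), all higher in CD9+ cells (Fos, Fosl2, Junb, Jund, Egr2 and Atf3), and 2 on day 14 (against 7.7%), Egr2 higher and Egr1 lower. The count was 3 without replicate 2 of day 1 in CD9+ cells, and 3 with scaling by library size alone, where Fos, Fosl2 and Jund passed the adjusted p but not the fold limit.

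Per length of exon, the FOS family transcripts were mostly Fos. It made up 64.1% to 88.1% of the summed FOS family CPM per kb in single libraries. Its share was highest in CX3CR1+ macrophages (87.8% ± 0.25 for day 1 and 87.9% ± 0.31 for day 14, SD, n = 2) and lowest in day 1 neutrophils (69.1% ± 7.0). Neutrophils had the largest shares of Fosl1 (7.19% ± 1.1 and 7.02% ± 0.85) and Fosl2 (12.4% ± 2.0 and 9.81% ± 0.014). In CX3CR1+ cells, Fosl1 made up 0.372% ± 0.13 and 0.206% ± 0.040.

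The JUN family was divided among its members. In neutrophils the share of Jun was 40.2% ± 5.2 on day 1 and 10.7% ± 2.3 on day 14, while Junb went from 40.7% ± 4.9 to 58.4% ± 2.2 (SD, n = 2). In the other groups the Jun share was 38.9% to 58.1%. The Jund share was 12.6% to 19.3% in the other populations on day 1 and 27.5% to 35.6% on day 14, without overlap of the 2 days in any of these 3 populations. The ratio of summed FOS to summed JUN family CPM per kb in neutrophils was 0.743 and 0.527 for day 1, and 1.43 and 1.49 for day 14. It was 1.40 to 1.85 in CX3CR1+ cells over both days. These are mRNA shares, and protein and dimer levels were not measured.

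**Figure D4:**
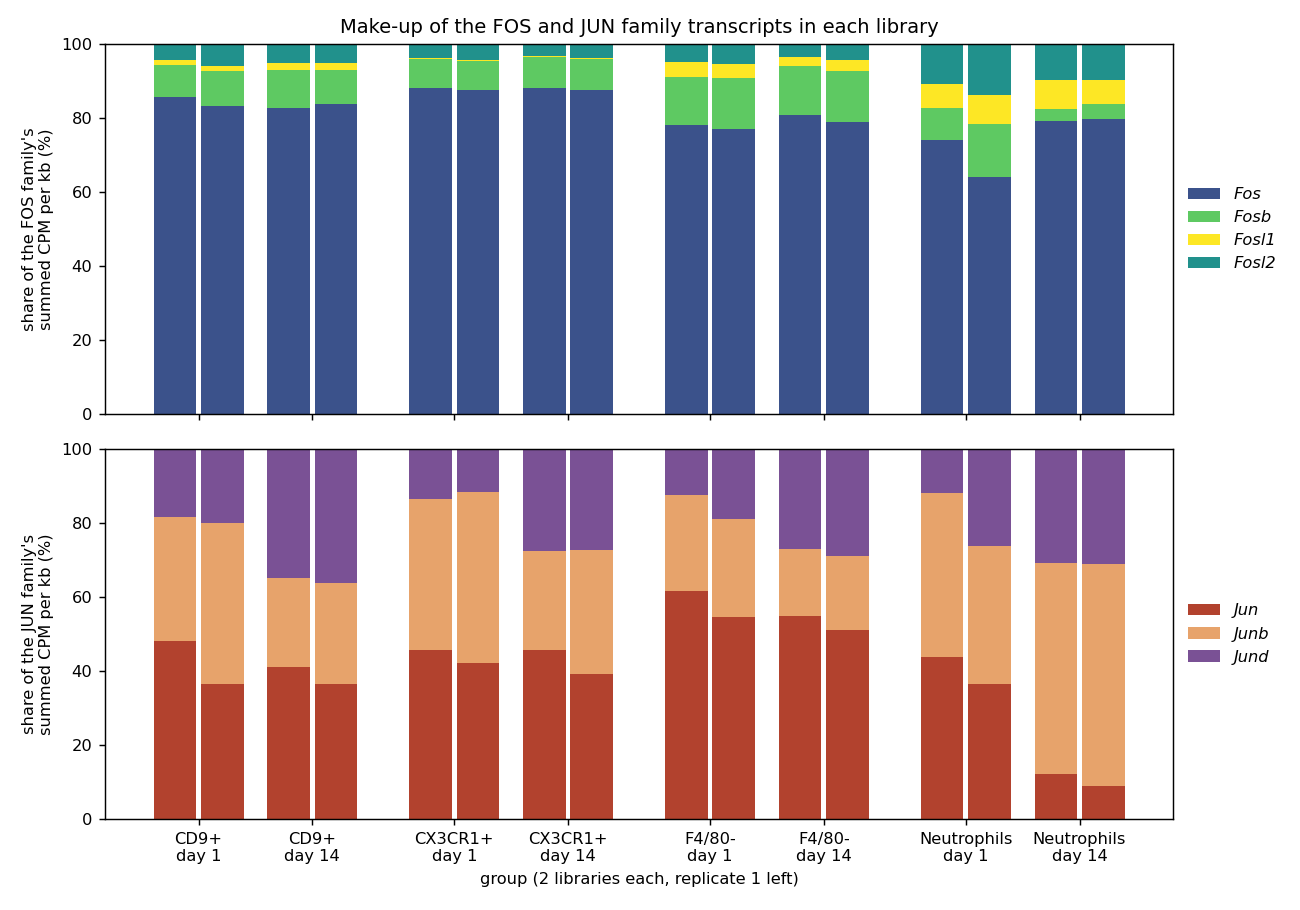
Share of each member in the summed CPM per kb of exon of the FOS family (upper) and the JUN family (lower), as stacked bars from 0 to 100% for each library. In day 14 neutrophils the share of Jun is about 10.7% and that of Junb about 58.4%.

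Other genes of the pathway were read from lists of known roles. Their counts over time stand beside the shares of all genes called, which were 14.1% in neutrophils (10.9% lower), 8.23% in CD9+, 5.86% in CX3CR1+ and 3.25% in F4/80- cells. Of 32 tested other immediate early genes, 10 were lower and 1 higher in neutrophils on day 14 than on day 1, with a list median of -0.74 beside -0.02 over all genes. The lowest were Ier3 (log2 fold change -3.41), Ppp1r15a, which restores translation after stress (-3.26), and Egr3 (-2.71), and the one that rose was Sik1 (1.25). In the other populations 4 (CD9+), 4 (CX3CR1+) and 1 (F4/80-) of the 32 were called, the last no more than the share of all genes. Klf2, a factor known to restrain inflammatory activation, rose in all 3 (1.47, 2.04 and 1.30).

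Feedback inhibitors of the pathway are the DUSP phosphatases of MAP kinases, the NAB corepressors of EGR factors and the ZFP36 proteins that destabilise early mRNAs. Of 17 tested, 8 were lower and none higher in neutrophils on day 14. In CD9+ cells 1 was higher and 3 lower, in CX3CR1+ cells 2 and 2, and in F4/80- cells 2 and 1. The lowest in neutrophils were Nab2 (-5.78), itself an EGR target, Dusp16 (-4.40) and Zfp36l1 (-4.31, from a mean of 1272 CPM to 64.0 CPM). Zfp36l1 was also lower on day 14 in CD9+, CX3CR1+ and F4/80- cells (-2.03, -2.03 and -1.63), and Dusp5 was higher in these 3 (1.23, 1.06 and 1.01). Of 24 tested upstream kinases and SRF cofactors, 3 were lower in neutrophils on day 14, namely Map3k8 (-2.63), Elk3 (-2.36) and Map2k1 (-1.19), and Rps6ka5 was higher (1.01), which is near the share of all genes. In the other populations 1 of the 24 was called, Elk3 in CD9+ cells (-1.34).

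Among 21 tested textbook targets of AP-1 or EGR factors, 14 were lower on day 14 in neutrophils and none higher, with a median of -2.77. In CD9+ cells 11 were lower and 1 higher (median -1.86), in CX3CR1+ cells 8 lower (median -0.91) and in F4/80- cells 7 lower (median -0.43), beside medians over all genes between -0.02 and 0.03. The lowest in the macrophages were Hmox1 in CD9+ cells (-3.63, from a mean of 1227 CPM to 98.8 CPM) and Spp1, encoding osteopontin, in CX3CR1+ cells (-4.91, from 533 CPM to 17.7 CPM). Mmp12, a macrophage elastase, was the one that rose in CD9+ cells (3.63 ± 0.58). Of the 10 genes, Egr2 was called lower in both macrophage populations and Jund higher in CX3CR1+ cells, while the others, Fos and Jun among them, were not called. The part of any of the 10 genes in the changes of this list was not tested. The list holds genes with several other regulators, and Nab2 and Ptgs2 stand in another list too.

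Of the 21 tested other bZIP factors, 6 were lower and none higher in neutrophils on day 14 (median -0.56), led by Creb5 (-4.03), Maff (-3.62) and Atf5 (-3.45). Between CD9+ and CX3CR1+ macrophages, 2 of the 21 were higher in CD9+ cells on day 1 (Atf5, 1.31, and Jdp2, a JUN partner that represses AP-1, 1.16). Of all genes 8.23% were called there and 6.36% called higher, so that count is near the share of all genes. On day 14, 2 were higher (Creb5, 2.55, and Jdp2, 1.86) and 3 lower (Bach1, -1.497, Batf, -1.19, and Atf6, -1.17), against 14.2% of all genes called. The list median on day 14 was -0.29.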

How the data were processed

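RNA of 4 flow-sorted myeloid populations on days 1 and 14 was sequenced from SMART-Seq Stranded libraries. After adapter trimming (Cutadapt) and alignment to mm10 (STAR), the authors counted reads over Gencode M23 exons and deposited raw counts per gene. The strand setting of the counting is not given in the sources used here. The annotation overlaps Jun with the antisense gene Junos, Jund with Gm11175 and Junb with Prdx2, so reads of these pairs may be mixed.

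From the counts, genes with a mean of at least 3 CPM in at least 1 of 8 groups were kept (11998 of 20200), TMM factors were computed, and 1 model with a mean per group over 16 libraries was fitted in R 4.3.3 with edgeR 4.0.16 (glmQLFit, glmQLFTest). Calls needed a Benjamini-Hochberg adjusted p under 0.05 over all genes tested and a log2 fold change of 1 or more in either direction (interactions: adjusted p alone). Standard errors were derived from the F statistic. Log2 CPM used a prior count of 2. Exon lengths came from the Gencode M21 annotation of the same build. The steps were tested on simulated data.

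The 10 genes and the gene lists were chosen with earlier results of these data known. Named were all 10 genes, from each list discussed the called genes with the highest and lowest log2 fold change, up to 3 each way, and the 3 genes most like Fos, Jun, Egr1 and Atf3. Klf2, Dusp5, Zfp36l1 and Jdp2 are named for several populations where that rule names them in at least 1. Not every gene that this rule names is reported here. Each sort pooled mice and gave several populations, and the paper's total of mice is too small for each library to have its own pool. Libraries of a day that carry the same number may thus share their mice, which the labels do not state. Their deviations from the group means correlated at 0.013 to 0.14 (above 0.1 in 3 of 12 pairs), and the main model had no replicate block. Alternatives were DESeq2 1.42.0, other filters and scalings, a fit of the compared groups alone, a replicate block, no fold limit, and leaving out each library.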

Additional observations from a re-analysis of the deposited data

Results flagged for a closer look

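These differences in the change from day 1 to day 14 between populations passed the test of the interaction itself (edgeR quasi-likelihood test, Benjamini-Hochberg adjustment over all genes, n = 2 libraries a group), and are given as log2 values. In neutrophils against the mean of both macrophage populations they were -3.03 for Jun (adjusted p = 2.5e-06), -1.496 for Atf3 (0.00022), -1.47 for Fosb (0.00056), -1.55 for Egr2 (0.0042), -1.21 for Egr1 (0.0057) and -1.59 for Jund (0.02). In F4/80- cells against the same mean the difference was 1.24 for Egr1 (0.037). In CD9+ against CX3CR1+ macrophages it was -1.33 for Atf3 (0.007). Without single libraries, Jun stayed between -3.32 and -2.79, Fosb between -1.74 and -1.13 and Atf3 between -1.67 and -1.30 in neutrophils, whereas Jund went to -0.63 without replicate 2 of day 1 neutrophils. Egr1 in neutrophils ranged from -1.53 to -0.79 and reached an adjusted p of 0.051 without replicate 2 of day 14, and Egr1 in F4/80- cells kept its value (1.10 to 1.39) but lost its call without any 1 of 10 of the 12 libraries (adjusted p up to 0.2). Atf3 in the macrophages ranged from -1.48 to -1.14 and reached 0.054 without replicate 1 of CX3CR1+ day 14. The causes were not tested.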

How the results depend on the processing

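No called value of the 10 genes changed sign under any alternative. Over all values and alternatives 49 of 2290 changed sign, none of them past the adjusted p in the main analysis, the largest of these having a main value of 0.41 in size. Among the alternative values of called differences, 54 lost their call, 22 of these without a library being left out. Of the counts of genes called, 140 stayed within 1.5 times and 11 did not. With scaling by library size alone, 3 genes were called for CD9+ over F4/80- on day 1 and 0 in the F4/80- interaction, and the changes over time in CD9+ cells of Fosb (0.012) and Jun (0.067) turned sign. In neutrophils the change of Fosl2 was 0.0059 with DESeq2, 0.025 with filterByExpr, 0.029 with no filter, 0.00558 with library size and 0.0081 with upper quartile scaling. With the compared groups alone, 0 were called over time in CD9+ cells and 0 for CD9+ over CX3CR1+ on day 1, and DESeq2 called 2 in the CD9+ against CX3CR1+ interaction. Without the fold limit, 3 passed over time in CD9+ cells, and 3 for CD9+ over CX3CR1+ on day 1 and 7 on day 14. There were 4 for CD9+ over F4/80- and 9 for CD9+ over neutrophils on day 14, and 8 for CX3CR1+ over F4/80- on day 1. The shares of all genes passing without the fold limit were not computed, so these counts have none beside them. The causes were not tested.

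Leaving out single libraries gave 0 to 1 called over time in CD9+, 1 to 2 in CX3CR1+ and 0 to 1 in F4/80- cells, 4 to 5 in neutrophils, 3 to 6 for CD9+ over F4/80- on day 1 and 1 to 3 on day 14, 0 to 5 in the CD9+ against CX3CR1+ interaction (5 without replicate 1 of CD9+ day 1), 4 to 7 in the neutrophil interaction and 0 to 2 in the F4/80- interaction. Uncalled changes over time that turned sign ranged from -0.43 to 0.080 (Fosb, CD9+), -0.67 to 0.15 (Fosl2, CD9+), -0.0036 to 0.13 (Junb, CX3CR1+), -0.14 to 0.10 (Fosl2, neutrophils) and -0.87 to 0.66 (Jund, neutrophils). The lone library left in a group was assumed to vary like the other groups.

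Whether libraries of a day with the same number came from the same mice is not given in the labels. The paper's total of mice is too small for each library to have its own pool, so populations shared mice. A fit with a replicate block on each day changed no call of the 10 genes and left all 19 counts of called genes equal to those without it, among them 5 over time in neutrophils. The highest group of Fosl2 and of Jund moved with library size scaling (to neutrophils on day 14 and CX3CR1+ cells on day 14), and that of Fosl2 also with the upper quartile.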

Other observations

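Over the 8 group means of log2 CPM, the genes with the pattern most like that of Fos were Tmem168 (Pearson r 0.992), March1 (0.984) and Rasa3 (0.983). Those most like Jun were Gm10138 (0.988), Xbp1, the factor of the unfolded protein response (0.964), and Helb (0.954). Those most like Egr1 were Crtc2, a CREB coactivator (0.973), Acot1 (0.972) and Rybp (0.969), and those most like Atf3 were Slfn5 (0.985), Zbp1 (0.981) and Il10ra, the receptor chain for IL-10 (0.981). With 8 points and 11998 genes, such values are a description of a pattern.

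Over the 16 libraries the pair with the most alike levels among the 10 genes was Fosl2 and Junb (Pearson r of log2 CPM 0.970), followed by Fosb and Jun (0.845). The least alike was Fosl1 with Atf3 (-0.590). The libraries share their groups, so these values describe group differences as much as variation within groups. In day 1 neutrophils 9 of the 10 genes were higher in replicate 2 (median log2 difference of replicate 1 over replicate 2 -0.30, range -1.53 to 0.30), and in day 14 neutrophils 9 of 10 were higher in replicate 1 (median 0.08). The share of all genes higher in the same replicate was not computed, so these counts cannot be read as particular to the 10 genes.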
